A study of Homo sapiens with 4 samples.

Results

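Fibroblast growth factors (FGFs) are secreted ligands that bind receptor tyrosine kinases at the cell surface, and the receptors pass the signal through RAS to the ERK kinases. ERK activity switches on transcription factors of the ETS family and, with them, a set of inhibitors that act back on the same cascade: Sprouty proteins and SPRED proteins act on the signal between receptor and ERK, and the phosphatase DUSP6 removes phosphate from ERK itself. In neural stem cells the pathway is known for keeping cells dividing and undifferentiated, and FGF2 is a common supplement of their culture media. Binding of the homeodomain transcription factors MEIS1 and MEIS2 was described around 10 genes of this pathway: the receptors FGFR1, FGFR2 and FGFR3, the ligand FGF2, the inhibitors SPRY1, SPRY2, SPRY4, SPRED1 and DUSP6, and the ETS factor ETV5. They were chosen by name out of 20144 protein-coding genes, and although the rule itself uses no measured value, the genes were proposed with earlier results of these data known. For each gene, every peak was taken whose summit lay in the gene body or within 250 kb on either side of it, and 28 of the 5169 reproducible MEIS sites of the series met that rule.

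ChIP-seq, the sequencing of DNA fragments that come down with an antibody to a bound protein, was run on hNSC, neural stem cells of human origin sold by Gibco, which received no treatment and grew in serum-free StemPro medium on Geltrex. There were 2 MEIS1/2 ChIP samples and 2 Input samples, which are chromatin that was not immunoprecipitated and which entered only as the control of peak calling. The study's methods describe a mixture of an antibody to MEIS1 and MEIS2A with an antibody to MEIS1, whereas the sample labels name only anti-MEISa. A peak does not tell which protein was bound, and the replicates came from cultures processed side by side. All samples shared 1 cell type and 1 state, so there was no comparison between conditions, and because a peak list holds neither expression nor read counts, the identity of the cells and the depth of the libraries could not be checked here.

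A site is given below by its distance from the first base of the gene's canonical transcript (the transcription start site, TSS), with a minus sign for upstream. Its strength is the −log10 p of the reproducible list, which was the lower of the 2 replicate values at 28 of the 28 sites, and its rank runs from 1, the strongest of the 5169. Fold enrichment is the ratio that the peak caller gave in each replicate for ChIP signal at the summit over a background estimated with Input. Coordinates are those of GRCh37.

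At 4 of the inhibitor sites, the sequence carried the MEIS core consensus almost exactly under the peak summit, and they are shown because they are the 4 strongest sites of the inhibitors. The stretches are reference sequence on the + strand, with the summit and 25 bases on either side of summit and consensus, and capitals mark TGACAG or its reverse complement. They lie 67.2 kb downstream of the SPRY1 TSS (chr4:124385168-124385224), 18.8 kb upstream of SPRY2 (chr13:80934072-80934127), and 184 kb and 1.61 kb upstream of SPRED1 (chr15:38361378-38361433 and chr15:38543400-38543455).
SPRY1 site at +67.2 kb: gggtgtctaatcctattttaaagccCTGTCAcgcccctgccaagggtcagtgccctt
SPRY2 site at −18.8 kb: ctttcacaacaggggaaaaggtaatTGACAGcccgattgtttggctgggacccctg
SPRED1 site at −184 kb: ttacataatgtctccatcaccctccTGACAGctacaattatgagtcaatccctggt
SPRED1 site at −1.61 kb: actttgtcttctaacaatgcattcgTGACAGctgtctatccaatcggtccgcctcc
The centre of the consensus lay 3.5 bp from the summit at SPRY1, 1.5 bp at SPRY2 and 2.5 bp at both SPRED1 sites. Among the 516 strongest sites of the whole list, 112 (21.7%) had it centred within 3.5 bp. That limit was taken from these 4 sites after they were seen, so all 4 meet it by construction. The FGFR3 sites, which are also among the 516, do not meet it. In 500 bp windows TGACAG was in 57.1% of the 28 sites, beside 58.3% of all 5169.

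The sites near FGFR3 and at the SPRY1 promoter are shown for contrast. The stronger FGFR3 site (chr4:1780066-1780159) held no TGACAG in 500 bp, and capitals mark the TEAD consensus GGAATG nearest to its summit, centred 40.5 bp away. At the weaker FGFR3 site (chr4:1787632-1787716) the reverse complement of TGACAG, in capitals, was centred 31.5 bp from the summit. The SPRY1 promoter site (chr4:124317850-124317907) also lacked TGACAG, and capitals mark TGATTGAC, the joint PBX-MEIS consensus without its last bases, centred 3.5 bp from the summit. That shorter string was searched after the stretch had been seen, and 1 of the 28 sites held it (3.57%), beside 5.80% of all 5169.
FGFR3 site at −14.9 kb: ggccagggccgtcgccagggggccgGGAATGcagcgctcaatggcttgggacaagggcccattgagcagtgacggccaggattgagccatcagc
FGFR3 site at −7.33 kb: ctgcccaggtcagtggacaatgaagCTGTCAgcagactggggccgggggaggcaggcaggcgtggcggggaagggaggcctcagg
SPRY1 site at −0.068 kb: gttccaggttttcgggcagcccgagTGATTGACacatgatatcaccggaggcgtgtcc

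Of the 10 genes, 9 had at least 1 reproducible site in their window and ETV5 had none. Among all protein-coding genes 47.6% had a site in the same window (9582 of 20144). The inhibitors held 22 of the 28 sites, the receptors 5 and FGF2 1. Strength ran from 13.8 to 337 at the inhibitors, with a median of 43.8, and from 18.1 to 570 at the receptors, with a median of 56.9. Of the 28 sites, 6 (21.4%) stood among the 516 strongest of the whole list: SPRY1 +67.2 kb, SPRY2 −18.8 kb, SPRED1 −184 kb and −1.61 kb, and both FGFR3 sites. A site within 5 kb of the gene's own TSS was present at SPRY1, SPRED1 and DUSP6, 3 of the 10 genes, beside 2.42% of protein-coding genes (480 of 19863 with a canonical transcript).

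**Figure D1:**
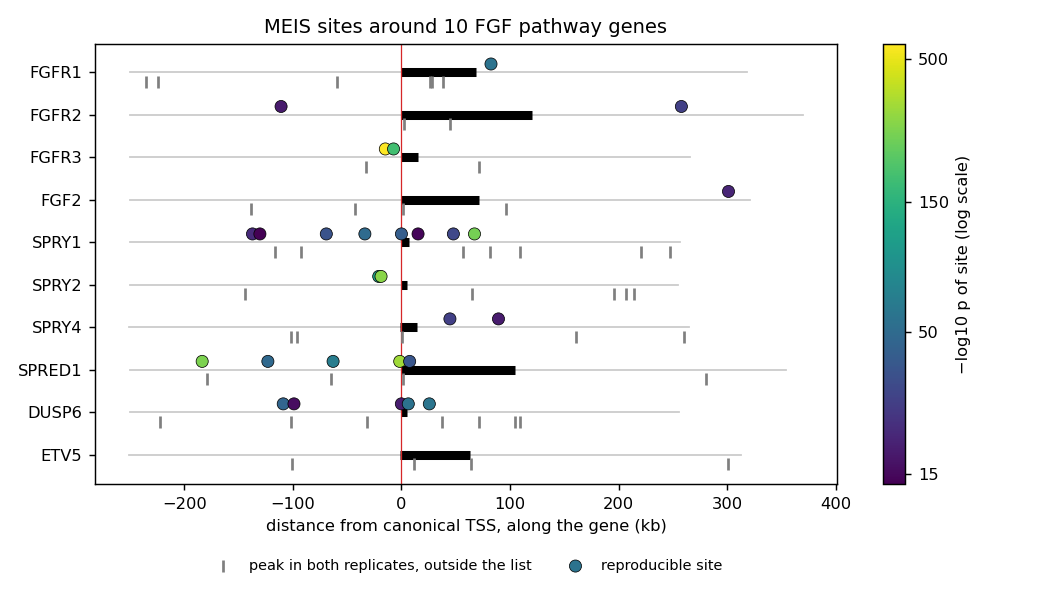
Positions of MEIS peaks around the 10 genes, with the distance from the canonical TSS in kb along the direction of the gene on the x axis and 1 row per gene. Black bars are gene bodies, grey lines the windows, circles the 28 reproducible sites coloured by −log10 p on a log scale, and ticks the peaks found in both replicates but outside the list. SPRY1 carries 8 circles on both sides of its TSS and ETV5 carries ticks only.

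FGFR3 had the strongest binding among the receptors. Its 2 sites lay upstream, outside protein-coding genes, on chromosome 4. The site at −14.9 kb (chr4:1779499-1781198) ranked 80 of 5169, with fold enrichments of 67.2 and 80.5 in replicates 1 and 2 and −log10 p of 1085 and 570. The site at −7.33 kb (chr4:1787168-1788256) ranked 341, with fold enrichments of 19.2 and 37.5 and −log10 p of 196 and 185. Both replicates thus placed both sites high, and the first exceeded the second in each replicate. Both lay in GC-rich sequence, at 68% and 65.8% over 500 bp, against a median of 42% over all sites. In replicate 1 alone, FGFR3 intron 2 held a further peak at +1.99 kb with a −log10 p of 24.4, and no replicate 2 peak overlapped it. The next reproducible site outside the FGFR3 window was 1063 kb from the gene.

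At FGFR1, the single site (chr8:38242824-38244735) lay 82.5 kb downstream of the TSS and 14.0 kb beyond the 3′ end of the gene. Its summit was 0.304 kb upstream of the TSS of LETM2, which was its nearest gene. Fold enrichment was 11.1 in replicate 1 and 14.4 in replicate 2, with −log10 p of 78.8 and 56.9, and its rank was 1321. The site was therefore stronger than the median of the list, which was 29.3, and lay at the promoter of a neighbouring gene. Inside FGFR1, intron 2 held a peak in both replicates at +27.9 kb, with fold enrichments of 4.86 and 7.92 and −log10 p of 23.8 and 22.3. That place was not in the reproducible list, although both values stood above 12.5, the lowest −log10 p of the list.

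FGFR2 had 2 distant sites, a weak one and one near the middle of the list. The first (chr10:123468040-123470141) lay 111 kb upstream, in the body of ATE1 but outside its canonical transcript, with fold enrichments of 4.90 and 8.67 and rank 4046. The second (chr10:123099392-123100547) lay 258 kb downstream of the TSS and 138 kb past the 3′ end, with fold enrichments of 6.24 and 19.5, −log10 p of 27.8 and 73.2 and rank 2703. This second site had the widest gap between replicates of all 28, with a fold enrichment 3.13 times higher in replicate 2. Neither site held TGACAG. No reproducible site lay within 100 kb of the FGFR2 body, and a peak in intron 1 at +2.28 kb that both replicates shared had −log10 p of only 4.88 and 10.8.

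FGF2, the ligand, had 1 site far outside the gene. It lay 301 kb downstream of the TSS and 230 kb past the 3′ end (chr4:124048892-124049783), in intron 14 of SPATA5, which was also its nearest gene. Fold enrichment was 4.45 in replicate 1 and 7.04 in replicate 2, with −log10 p of 20.5 and 20.3 and rank 3641. The site thus stood in the weaker part of the list, and it was no longer counted when only the strongest peaks of replicate 2 were used. An intron 1 peak at +1.71 kb appeared in both replicates with −log10 p of 2.94 and 3.48, close to the threshold at which peaks were called. The FGF2 and SPRY1 windows overlapped by 1442 bp on chromosome 4, since the gene bodies lie 499 kb apart, and no site fell into the overlap.

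SPRY1, a Sprouty inhibitor, had 8 sites, the most of the 10 genes. They ran from −137 kb to +67.2 kb, and SPRY1 had the nearest TSS at 8 of 8. The strongest (chr4:124384632-124385828, +67.2 kb) ranked 220, with fold enrichments of 25.3 and 43.9 and −log10 p of 303 and 260. The other 7 SPRY1 sites were much weaker, with −log10 p between 13.8 and 50.03. The promoter site (chr4:124317427-124319015) had its summit 0.068 kb upstream of the TSS, with fold enrichments of 5.83 and 11.7, −log10 p of 44.1 and 41.5 and rank 1812. Upstream of it lay sites at −33.7 kb (chr4:124283577-124284790, −log10 p 50.03) and −69.3 kb (chr4:124248051-124249205, 35.7). The sites at −130 kb (chr4:124186970-124187844, 13.8) and −137 kb (chr4:124180327-124181049, 21.6) were in intron 15 of SPATA5. Downstream, the sites at +15.3 kb (chr4:124332808-124333843) and +47.8 kb (chr4:124365082-124366173) had −log10 p of 14.5 and 31.0. At −33.7 kb the 2 replicate summits were 235 bp apart, wider than the 1 to 42 bp at the other 7.

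SPRY2 had a pair of strong sites close together upstream. The site at −18.8 kb (chr13:80933127-80935331) ranked 190, with fold enrichments of 30.0 and 49.1 and −log10 p of 344 and 295. Its neighbour at −21.0 kb (chr13:80935802-80936887) ranked 584, with fold enrichments of 11.7 and 24.4 and −log10 p of 120 and 133. Both had SPRY2 as nearest gene and held TGACAG, and no other reproducible site lay in the window. SPRY4 differed in strength: its 2 sites, at +44.6 kb (chr5:141659423-141660403) and +89.4 kb (chr5:141614142-141616084), ranked 2725 and 4029. Their fold enrichments were 6.04 and 8.25 at the first and 6.91 and 7.42 at the second, and neither held TGACAG. A peak at the SPRY4 TSS itself (+0.01 kb) was called in both replicates with −log10 p of 5.80 and 4.89, and it was not in the reproducible list.

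SPRED1, a Sprouty-related membrane protein that limits activation of RAF by RAS, had 5 sites, of which 4 lay upstream. The site at −1.61 kb (chr15:38542589-38544311) ranked 157 and was the strongest of all inhibitor sites, with fold enrichments of 28.9 and 54.8 and −log10 p of 406 and 337. The most distant site, at −184 kb (chr15:38360780-38362432), ranked 206, with fold enrichments of 25.96 and 41.9 and −log10 p of 274 and 277. It fell in an exon of the long non-coding RNA gene LINC01852, and its nearest protein-coding gene was TMCO5A. These 2 sites lay far apart, and the one at −1.61 kb was the stronger in both replicates. Sites at −63.0 kb (chr15:38481064-38482498), inside the non-coding gene LINC02895, and at −123 kb (chr15:38421413-38423148) had −log10 p of 65.4 and 48.4. The fifth, at +7.52 kb (chr15:38552000-38553582, 37.1), lay in SPRED1 intron 1 and was the only one of the 28 sites inside the body of its own gene.

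DUSP6 had 5 sites, with −log10 p from 15.5 to 58.3, on either side of the list's median of 29.3. Nearest the TSS was a site at −0.132 kb (chr12:89745974-89747097), with fold enrichments of 4.73 and 6.37, −log10 p of 20.2 and 18.6 and rank 3963; its summit also fell in an exon of a long non-coding RNA gene. This promoter site was the only one of the 28 with none of the searched consensuses in 500 bp. Past the 3′ end lay the strongest DUSP6 sites, at +6.26 kb (chr12:89739309-89740739) and +25.6 kb (chr12:89720130-89721599). Their fold enrichments were 8.39 and 14.4, and 10.6 and 13.0, with ranks 1348 and 1287. The sites at −109 kb (chr12:89854046-89855711, −log10 p 46.1) and −99.1 kb (chr12:89844244-89846117, 15.5) were in introns 9 and 10 of POC1B and had GALNT4 as nearest gene. At −99.1 kb the replicate summits were 817 bp apart, the widest gap of the 28.

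ETV5, an ETS factor switched on by ERK signalling, had no reproducible site within 250 kb of its body. The nearest lay 321 kb away. Peaks were nevertheless called in both replicates at 4 places in the window, and 1 of them, in ETV5 intron 5 at +11.3 kb, differed widely between the replicates. Its fold enrichment was 2.90 in replicate 1 and 10.7 in replicate 2, with −log10 p of 8.11 and 33.5. With the strongest peaks of replicate 2 alone, ETV5 had 1 site.

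**Figure D2:**
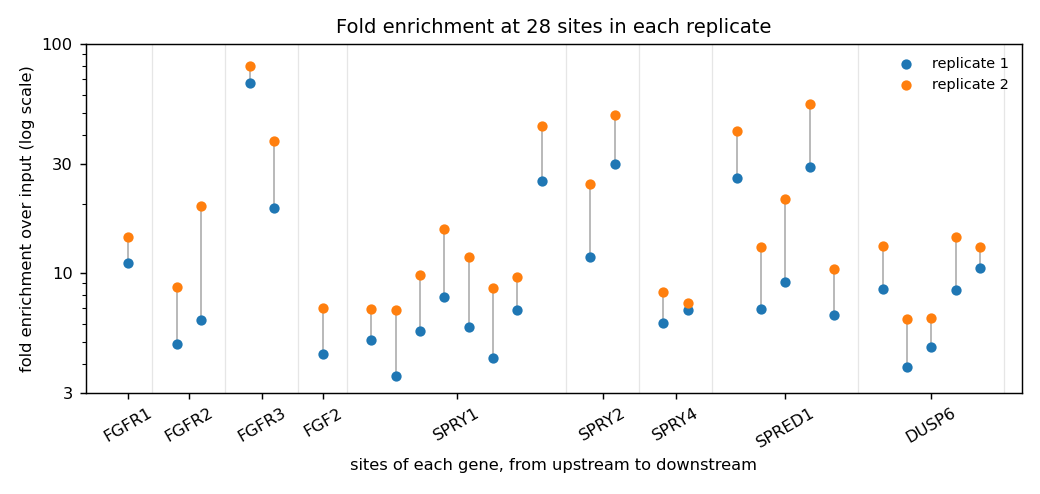
Fold enrichment over the background estimated with Input, on a log y axis, at each of the 28 sites. Sites are grouped by gene on the x axis and ordered from upstream to downstream, with 1 point for replicate 1 and 1 for replicate 2. Replicate 2 is the higher at 28 of 28 sites, by 1.07 to 3.13 times, and the FGFR3 site at −14.9 kb is the highest in both.

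Fold enrichment was higher in replicate 2 at 28 of the 28 sites, with a median ratio of 1.68, and at 5036 of all 5169 sites, with a median ratio of 1.80. The −log10 p, by contrast, was higher in replicate 1 at 16 of the 28 (57.1%), against 35.8% over the whole list. The order of the sites was similar in both replicates: Spearman's rho across the 28 sites was 0.895 for −log10 p and 0.915 for fold enrichment, and across all sites 0.779 and 0.735. These are descriptions across sites that share libraries, and the list was itself selected for agreement in rank between the replicates. Summits of the replicates fell within 50 bp of each other at 25 of the 28, and the median gap was 4.5 bp, against 11 bp over all sites.

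The sites of the 10 genes were on the whole somewhat stronger and broader than the list. Their median −log10 p was 43.8 against 29.3, their median width 1433 bp against 1086 bp, and their median fold enrichments 6.95 and 13.0 against 6.38 and 11.5. Measured to the nearest TSS of any protein-coding gene, 4 of the 28 (14.3%) lay within 5 kb, against 8.43% of all sites. Relative to their own gene, 17 sites were upstream, 1 was in the body and 10 were past the 3′ end. Most were distal: 10 lay within 25 kb of the gene's TSS and 8 beyond 100 kb. For 23 of the 28 the nearest TSS was that of the gene itself, and 21 lay outside protein-coding genes altogether.

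Counts of sites rise with the size of the window, so each gene was set beside the 200 protein-coding genes nearest to it in body length, with the same 250 kb on each side. SPRY1, with 8 sites, had more than any of its 200, whose highest count was 6 and whose median was 0. Of the 200 genes like DUSP6, 1 reached its 5 sites, and of the 200 like SPRED1, 5 reached its 5. Those counts stood at percentiles 100, 99.5 and 98.5, with ties counted in equal parts above and below. SPRY2 stood at percentile 92.8, SPRY4 at 89.0, FGFR3 at 88.5 and FGFR2 at 78.8, each with 2 sites. These placings moved with the settings: with windows of 100 kb FGFR2 had 0 sites and stood at 30.5. SPRY2, SPRY4 and FGFR3 stood at 97, 98.25 and 97.75 with the same windows. FGFR3 stood at 68.25 with windows of 500 kb, and SPRY4 at 72.5 without replicate 1. FGFR1 and FGF2 had 1 site each, which was also the median of their like-length genes. Their placing was not stable either: with 1 replicate alone FGFR1 had 2 sites and stood at percentile 82.8 or 86.3. FGF2 stood at 23.5 without replicate 1, and with windows of 500 kb it had 6 sites and stood at 98.5. At 500 kb its window reached past the SPRY1 TSS and took in the SPRY1 sites from −137 kb to −0.068 kb. ETV5 had none, as did 51.5% of its like-length genes, and stood at percentile 25.75. Without replicate 1 it had 1 site and stood at 68.75. In all, 7 of the 10 genes had more sites than the median of their like-length genes, and the median percentile was 88.8. Because of ties, fewer like-length genes than might be thought exceed such a median. At the 5 inhibitors the median was 0, and 50.5% to 63% of the like-length genes had no site. At FGFR2 and FGFR3 it was 1, and 30.5% and 17% of the like-length genes had 2 or more. Over all protein-coding genes the median was 0 sites, the highest count 17, and 49 genes had 8 or more.

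Length was matched but gene density was not, and several windows were poor in genes. The SPRY1 and SPRY2 windows held 0 further protein-coding TSSs, where the median of like-length genes was 13 and 11. DUSP6 had 3 against 11, SPRY4 1 against 10, SPRED1 2 against 4 and FGFR2 0 against 4. Windows with few sites were also below the median: ETV5, with no site, had 2 against 6, and FGF2, with 1, had 4 against 6. FGFR3 had 8 against 10. FGFR1 went the other way, with 7 against 5. The part of gene density in the counts was not tested.

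**Figure D3:**
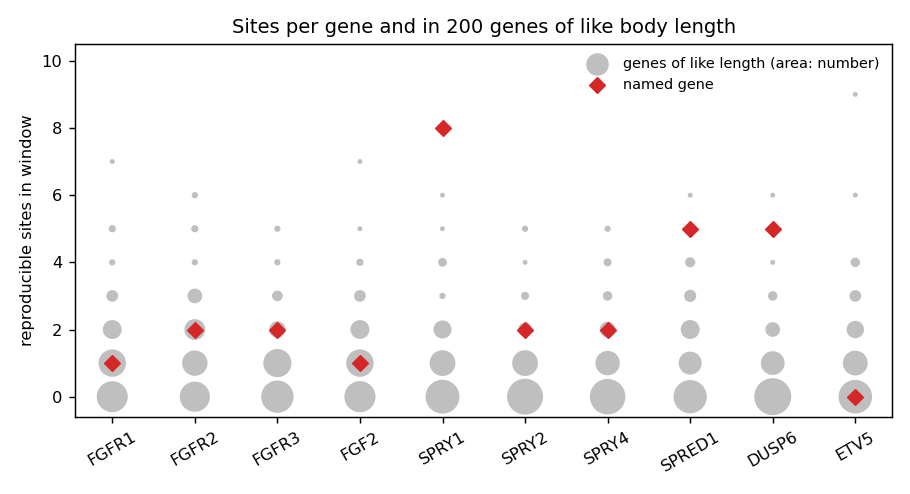
Number of reproducible sites in the window (y axis) for each of the 10 genes (red diamonds), over the counts of 200 protein-coding genes of like body length (grey circles, with area in proportion to the number of genes). SPRY1 at 8 lies above all of its circles, and ETV5 lies at 0.

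Consensus strings were counted on both strands in the 500 bp centred on each summit. TGACAG, the MEIS core, was in 16 of the 28 sites (57.1%, Wilson 95% interval 39.1 to 73.5), beside 58.3% of all 5169 sites, so that its share was that of the list. At the inhibitors alone it was in 13 of 22 sites (59.1%). Of 20 occurrences in the 28 windows, 11 (55%) were centred within 50 bp of the summit, beside 55.1% of 4292 occurrences over all sites. The joint PBX-MEIS strings TGATTGACAG and TGAGTGACAG, which contain TGACAG, were in 0 of the 28, for which the interval reaches 12.1%, beside 4.93% of all sites.

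Strings of other factor families were counted in the same way. The SOX strings ACAAAG or ACAATG were in 20 of the 28 sites (71.4% against 71.0%), the FOX string TAAACA in 12 (42.9% against 34.4%) and the TEAD string GGAATG in 12 (42.9% against 38.2%). The LHX homeodomain string TAATTA was in 7 (25% against 18.2%), the AP-1 string TGAGTCA in 4 (14.3% against 11.8%) and the ETS string CCGGAA in 3 (10.7% against 6.66%). With 28 sites, each share of the list lay inside the 95% interval of the share at the 10 genes. Those intervals were wide (26.5 to 60.9 for FOX), so neither likeness nor difference can be read from them. Of the 6 strongest sites 5 held TGACAG (83.3%, interval 43.6 to 97.0), beside 59.5% of the 516 strongest sites of the list, which lies inside that interval. In 4 of the 6 it was centred within 3.5 bp of the summit, a distance chosen after these sites were seen, beside 112 of the 516 (21.7%). Of these 6, the FGFR3 site at −14.9 kb held TEAD strings and no other.

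**Figure D4:**
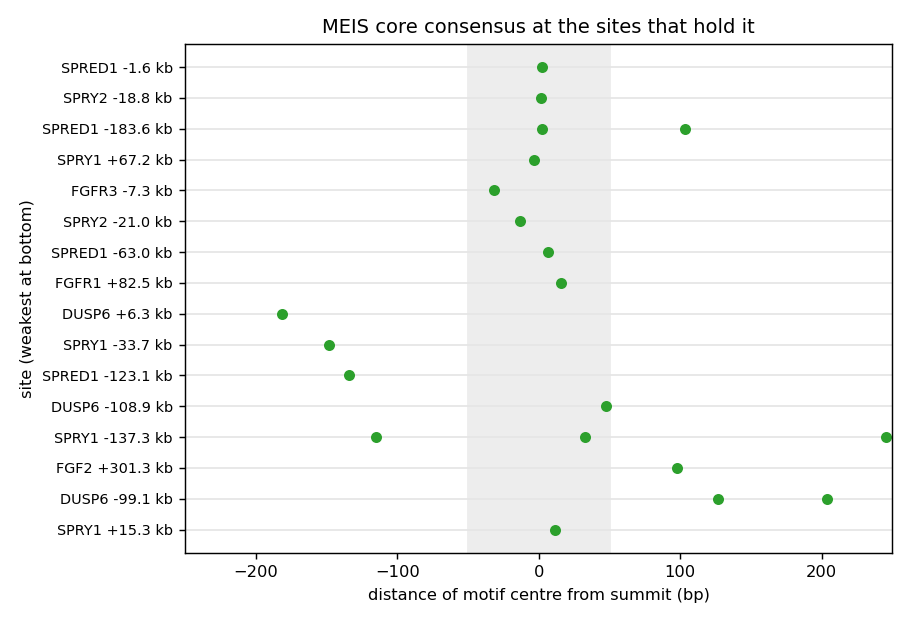
Distance in bp of each TGACAG (either strand) from the summit, on the x axis, for the 16 sites that hold it, ordered on the y axis with the strongest site at the top. The grey band marks 50 bp on either side of the summit, and the 4 strongest sites each have a point within 3.5 bp of the summit, a distance chosen after they were seen.

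Peaks of the single replicates were more numerous, as they were called at a permissive p of 0.01. In the 10 windows there were 124 peaks in replicate 1 and 151 in replicate 2, and each gene had peaks in both. Of the replicate 1 peaks, 74 (59.7%, interval 50.9 to 67.9) overlapped a replicate 2 peak, beside 49% of all 36796. Of the replicate 2 peaks, 73 (48.3%, interval 40.5 to 56.3) overlapped a replicate 1 peak, beside 38% of all 47449. Each of the 28 sites accounted for 1 peak per replicate, a further 46 and 45 peaks were shared but outside the list, and 50 and 78 were in 1 replicate only. SPRY1 had the most peaks in replicate 1, at 21, and DUSP6 in replicate 2, at 24. ETV5 had the fewest in replicate 1, at 6, and FGFR3 in replicate 2, at 8. Against like-length genes, SPRY1 stood at percentile 99.5 and 99.0 in the 2 replicates and DUSP6 at 95.3 and 99.5, whereas FGFR2 stood at 35.8 and 52.8. SPRY4 stood at 93.75 and 98.25, SPRY2 at 89.5 and 95.25, and SPRED1 at 80.5 and 78.5. FGFR1 stood at 88 and 70, FGF2 at 76.75 and 57, and FGFR3 at 72 and 47.5. ETV5 differed most between the replicates, at 31.25 and 73.

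**Figure D5:**
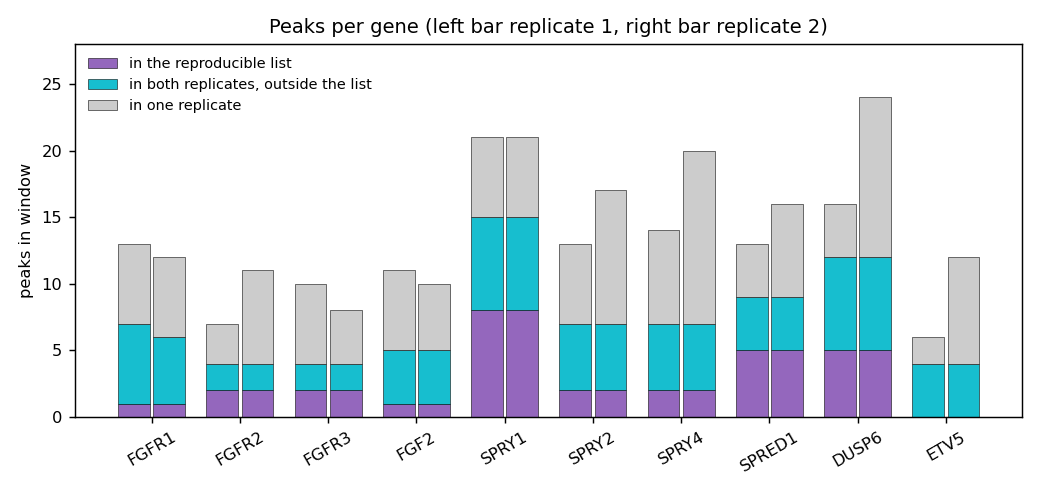
Number of peaks in the window of each gene (y axis), with the left bar for replicate 1 and the right bar for replicate 2, divided into peaks of the reproducible list, peaks in both replicates outside the list and peaks in 1 replicate. SPRY1 has 21 peaks in each replicate, DUSP6 has 16 and 24, and ETV5 has 6 and 12 with none in the list.

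The rest of the pathway was counted in the same way. A list of 63 further genes held FGF ligands, receptors and co-receptors, RAS to ERK cascade genes, inhibitors and target factors. Of these, 38 (60.3%) had a site in the same window, beside 47.6% of all protein-coding genes. The median percentile of the 63 among like-length genes was 57.5, and 28 had more sites than the like-length median, 11 fewer and 24 as many. Where the like-length median was itself no site, as at FGF3, FGF4 and FOS, a gene without a site could not count as fewer. The 28 and the 11 therefore cannot be read as an excess, since the share of ordinary genes above such a median is not given here. A site in the windows of 2 genes was counted for both. FGF19 and CCND1, for example, had the same strongest site, as did FGF6 and FGF23. Of 11 further inhibitors, among them SPRY3, SPRED2, SPRED3 and the phosphatases DUSP4, DUSP5, DUSP7 and DUSP9, 3 had a site (27.3%), with a median percentile of 27.8. Sites were present at 13 of 21 ligands, 12 of 18 cascade genes and 5 of 6 target factors. Among 7 receptors and co-receptors 5 had a site, but the receptors FGFR4 and FGFRL1 had none.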

How the data were processed

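The 2 MEIS1/2 ChIP and 2 Input libraries of hNSC had paired 36 bp reads. Adapters were trimmed by the authors with cutadapt 1.16. They mapped reads to GRCh37 with Bowtie2 2.3.0, kept mapping qualities of at least 30 with SAMtools 1.2, removed duplicates with Picard 2.15.0, called peaks per replicate against Input with MACS2 (version not given in the sources used here) at p 0.01, and selected reproducible sites with IDR 2.0.3. Reads from near-identical repeats are lost by that filter. The deposited peak lists give fold enrichment (a ratio), −log10 p and −log10 q, and the deposited site list gives a scaled IDR score, −log10 p and summit. Its 8 columns of per-replicate values were not used, and replicate values came from the strongest overlapping replicate peak (at least 1 bp). Depth is unknown, and so is which of the described wash protocols each replicate had. Wilson intervals cover the number of sites only.

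Samples were grouped by title. Genes came from GENCODE 44 on GRCh37, and no peak lay outside its chromosome. Counting and matching were tested on simulated data (Python 3.11.15, numpy 2.4.6, pandas 2.3.3, scipy 1.17.1, pysam 0.24.0). Every member was named with each of its sites, and other genes were named as the nearest to a site or host of a site, or as the 5 pathway genes with most sites, with ties broken by the strongest site. A few others of the pathway list were named as examples. Members, lists and consensuses were chosen with earlier results of these data known, so no test was run. Alternatives changed the window, the IDR limit, the assignment of sites, the peak threshold, the overlap, the consensus window, the like-length genes and the replicate.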

Additional observations from a re-analysis of the deposited data

How the results depend on the processing

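In all, 157 alternative values were computed. None is a signed comparison, so none could have reversed, and many changed in size. The 28 sites became 44 with windows of 500 kb. Replicate 1 peaks numbered 77 with windows of 100 kb, 213 with 500 kb and 67 at a −log10 p of at least 5, and replicate 2 peaks 88, 266 and 80. The share of replicate 1 peaks overlapping replicate 2 was 76.1% at a −log10 p of at least 5 in both, 44.4% where the overlap had to cover 50% of both peaks and 43.5% with summits within 100 bp. TGACAG was in 39.3% of sites in 200 bp windows, beside 46.4% of all sites in windows of that size. The median percentile was 97.1 with windows of 100 kb, 87.9 with 500 kb, 87.5 against 100 like-length genes and 85.2 against all genes.

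With only the strongest 5169 peaks of 1 replicate, sites numbered 26 to 28, genes with a site 9 to 9, the TGACAG share was 53.8% to 60.7% and the median percentile 88.4 to 89.1. Without replicate 1, FGF2 had 0 sites, ETV5 1, SPRY4 1 and FGFR1 2. Without replicate 2, FGFR1 had 2 and FGFR3 4. At an IDR of 0.001 or less FGF2 had 0 sites, SPRY1 5, DUSP6 3, FGFR2 1 and SPRY4 1. No paired analysis was possible because no groups were compared and values are given for the ChIP replicates alone. Unknown depth limits all counts of weak peaks.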

Other observations

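Of the 63 further pathway genes, FGF12, FLRT3, FGF14 and ETV1 had more than 2 sites, and SPRED3 had the strongest site among the 14 genes with 2. FLRT3, a transmembrane protein that binds FGF receptors, had 6 sites at percentile 99.8 among like-length genes, and its strongest, 33.7 kb downstream of the TSS, had a −log10 p of 763, above each site of the 10 genes. FGF12 had 7 sites at percentile 96 over a body of 628375 bp, with the strongest at 71.9 and nearest to PYDC2. FGF14 had 4 at percentile 76.3, with the strongest at 274 and at −117 kb from the TSS. Both encode FGF homologues that stay inside the cell.

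ETV1, an ETS factor related to ETV5, had 3 sites, of which the strongest (29.7) lay at −0.119 kb from its TSS, whereas ETV5 had none in its window. SPRED3, related to SPRED1, had 2 sites, and the strongest (125) had EIF3K as nearest gene.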
